A study of Mus musculus with 69 samples.

Results

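Central memory CD8+ T cells (Tcm) from mice that lack both Stat5b alleles and carry a single Stat5a allele (Stat5a+/- Stat5b-/-, called BBA) were compared with wild-type cells (WT, Stat5a+/+ Stat5b+/+) after culture with IL-15. The comparison rests on 4 RNA-seq libraries, 2 from each genotype, of 69 samples in the series, and takes in all 10098 genes that passed a filter on low counts out of 24309 gene symbols. Cells of the reciprocal genotype, which lack both Stat5a alleles and carry a single Stat5b allele (Stat5a-/- Stat5b+/-, called AAB), gave 2 further libraries that shared the fit. All alleles were germline deletions, so the other cells of these mice lacked them too. Mice of both sexes, 8 to 16 weeks old, were used, and cells were sorted from pooled lymph nodes and spleen by a CD8α+ CD44 high central memory gate. The culture lasted 12 to 16 hours by the labels, or up to 18 hours by the study's methods, which give 10 ng/ml of IL-15. The comparison asks which transcripts of IL-15-treated memory cells differ when these alleles are missing.

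IL-15 is held on the surface of neighbouring cells by its private receptor chain and signals through the IL-2 receptor β chain (CD122) and the common γ chain. The kinases JAK1 and JAK3 then phosphorylate STAT5A and STAT5B, closely related transcription factors that pair, enter the nucleus and bind sites of the form TTCNNNGAA. In memory CD8+ T cells this route is known for survival through BCL-2, for slow self-renewing division, and for a feedback loop in which CIS and SOCS proteins are made and dampen the receptor.

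Total counts on genes were 17683997 and 16480206 in WT, 15261927 and 16065891 in AAB and 9469916 and 12214284 in BBA, so both BBA libraries were shallower than every other library. Levels are given in CPM, the counts scaled to a common size of the normalized library total, and fold changes as log2 of BBA over WT with the standard error (SE). Differentially expressed genes (DEG) had a change above 1.5-fold and an adjusted p under 0.05, by the edgeR quasi-likelihood test with Benjamini-Hochberg adjustment over all genes tested. The labels do not tie single libraries to animals. By the study's reporting notes a group held separate mice assayed over several trials, and which library belongs to which trial is not given. The p-values measure the spread between these libraries. Xist, expressed in female cells, was high in all 6 libraries and Y-linked genes were near 0.

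Stat5a was lowest in AAB and Stat5b was lowest in BBA. Stat5b gave 177 and 212 CPM in WT, 100.3 and 96.4 CPM in AAB and 68.6 and 77.6 CPM in BBA (-1.41 ± 0.12, adjusted p = 0.000337). Stat5a gave 82.6 and 91.1 CPM in WT, 2.73 and 2.68 CPM in AAB and 43.9 and 46.0 CPM in BBA (-0.95 ± 0.10, adjusted p = 0.000714). BBA cells, with a single Stat5a allele, held 51.7% of the WT level of Stat5a, and AAB cells were the lowest. Stat5b reads did not fall to 0 in BBA, which held 37.7% of the WT level, so they check the labels only in part. Which exons the deleted alleles lack is not given in the sources used here, and how reads common to both paralogs were counted is not stated. Stat2, Stat3, Stat4 and Stat6 had fold changes from 0.01 to 0.22, and none was called.

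The sorted cells carried the markers of their gate in every library. The summed level of 5 CD8+ T cell genes was 3570 to 4021 CPM in WT and 3309 to 3536 CPM in BBA, and that of 7 central memory genes was 3530 to 3640 CPM and 3424 to 3580 CPM. Among the latter only Il2rb and Il7r, both described below, were called. Markers of other cells were low but not equal. The 6 B cell markers summed to 97.7 to 183 CPM in WT and 215 to 441 CPM in BBA, with 0 of 6 called. The 8 myeloid markers summed to 20.5 to 28.8 CPM in WT and 45.9 to 66.3 CPM in BBA, and 3 of the 5 that passed the filter (Lyz2, Cd68 and Csf1r) were called higher. The 4 CD4+ T cell markers summed to 26.1 to 31.9 CPM in WT and 21.6 to 23.1 CPM in BBA. Of these Cd4 stayed at 0.585 to 3.18 CPM. Foxp3 and Zbtb7b passed the filter and were not called. Foxp3 was at 16.0 and 17.7 CPM in WT and 11.7 and 11.3 CPM in BBA. The 7 erythroid markers summed to 0.643 to 1.43 CPM in WT and 1.30 to 1.76 CPM in BBA, with all 5 globin genes listed at 0 in all 6 libraries. In the myeloid list the neutrophil genes S100a8 and S100a9 went the other way and were not called. They gave 0.207 and 3.26 CPM and 0 and 3.02 CPM in BBA, against 4.16 to 7.78 CPM in WT. The part of B and myeloid cells in the results was not tested. In bulk samples fewer cells of a type and less RNA per cell cannot be told apart.

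BBA cells differed from WT in 2395 genes, of which 1194 were lower (11.8% of the genes tested) and 1201 were higher (11.9%). These percentages are the background for every count of a gene group that follows. The WT and the BBA libraries did not overlap in 2394 of the 2395 DEG, nor in 71.4% of all genes tested. The mean of the AAB libraries lay between the WT and BBA means in 2276 of the 2395 DEG. An AAB level between WT and BBA, named for single genes below, was thus common to most DEG. The higher side reached further: 194 genes rose by more than 4-fold and 64 fell by more than 4-fold. It was also concentrated among rare transcripts. Of the 2020 genes with the lowest levels (mean of 0.947 to 14.6 CPM) 577 were higher and 194 lower, while the 4 further sets of 2019 or 2020 genes each held 118 to 240 higher and 219 to 266 lower genes. A gene passed the filter if 1 library exceeded it, so a rare transcript that passed through BBA alone had to be higher there. Maf, Cx3cr1, Bmf, Psmb11, Ldhb, Gzmk and Bcl2a1b are examples of list members counted below that did not reach the filter in WT. The shares called higher hold such genes, and so does the 11.9% of all genes. When every library was thinned to 9469916 counts, 15904 and 18216 symbols had a count in WT, 18263 and 20040 in AAB, and 21032 and 21362 in BBA. Transcripts under the filter took 0.448% and 0.543% of the counts in WT and 1.27% and 1.41% in BBA. The part of this low-level signal in the higher genes was not tested.

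The balance of both directions depended on scaling. With TMM factors computed on all symbols before the filter, 2261 genes were lower and 748 higher, or 24.9% higher against 50.1%, and the median over all genes moved from 0.02 to -0.24. With plain library totals 1005 were lower and 1414 higher (58.5%). Counts below are given with TMM factors computed after the filter. Where TMM before the filter or plain totals moved a list's count by more than 1.5 times, or took it from or to 0, those counts follow.

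**Figure D1:**
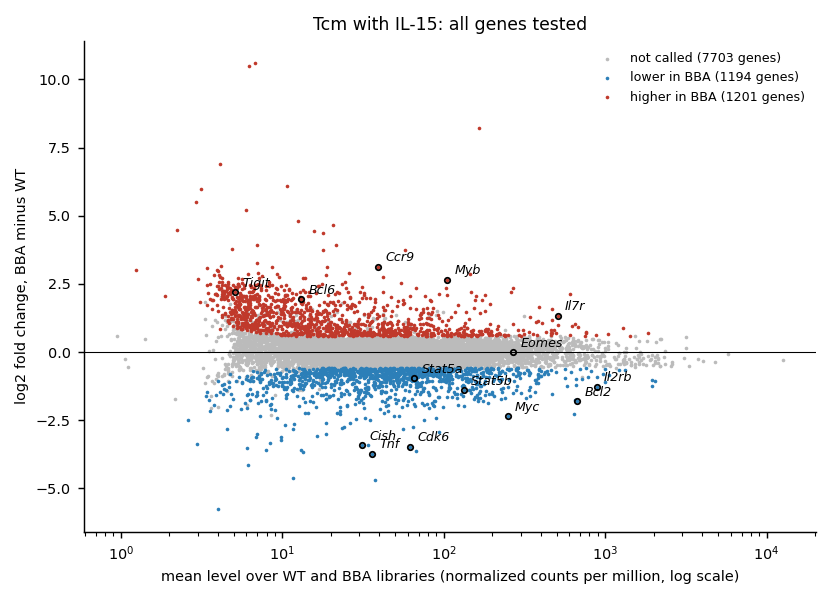
Each point is a gene tested in Tcm with IL-15, with its mean level over the WT and BBA libraries (normalized CPM, log axis) on the x axis and the log2 fold change of BBA over WT on the y axis, and DEG are coloured by direction. The 1194 lower genes spread over all levels, while 577 of the 1201 higher genes are among the 2020 genes with the lowest levels.

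Feedback inhibitors of the IL-15 receptor were among the losses. Cish, which encodes CIS, fell to 9.44% of its WT level, with 62.7 and 51.1 CPM in WT, 26.8 and 25.5 CPM in AAB and 6.42 and 4.32 CPM in BBA (-3.42 ± 0.20, adjusted p = 0.000115). Both AAB libraries lay between WT and BBA, without overlap. Socs2 gave 16.6 and 14.6 CPM in WT, 3.33 and 3.25 CPM in AAB and 2.59 and 3.18 CPM in BBA (-2.43 ± 0.23, adjusted p = 0.000591). Here AAB was close to BBA. Socs1, an inhibitor of JAK kinases, gave 188 and 236 CPM in WT, 153 and 145 CPM in AAB and 72.1 and 89.7 CPM in BBA (-1.38 ± 0.15, adjusted p = 0.000746). AAB again lay between them. All 8 listed members passed the filter, 3 were lower and 0 higher. Socs3 (-0.53 ± 0.13) had an adjusted p of 0.0153 but differed by less than 1.5-fold, and Socs4, Socs5, Socs6 and Socs7 ran from -0.10 to 0.50.

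The sequence around the start of Cish holds STAT5 sites, and is shown together with those of Socs3 and Pim1 as the promoters of feedback and PIM genes with a match, of Mxd4 as that of a MYC antagonist, and of Bcl6 as that of a gene that rose. Sequences are from RefSeq on GRCm38.p6, 250 bases before to 50 bases after the start, and run 5′ to 3′ on the gene's strand. Capitals mark TTCNNNGAA in Cish, Socs3 and Bcl6 and CACGTG, the E-box that MYC binds, in Pim1 and Mxd4. Both motifs read the same on either strand. Cish is at chr9:107296409-107296708 on the plus strand, Socs3 at chr11:117969317-117969616 on the minus strand, Pim1 at chr17:29492835-29493134 on the plus strand, Mxd4 at chr5:34187661-34187960 on the minus strand and Bcl6 at chr16:23981234-23981533 on the minus strand. Bcl6 and Mxd4 were picked after their values were seen, and Pim1 and Bcl6 each have another promoter in the table. The Pim1, Socs3 and Bcl6 windows shown lie inside the genes as annotated (chr17:29490785-29496111, chr11:117966079-117970336 and chr16:23965050-23988866). Another Bcl6 window (chr16:23988803-23989102) spans the annotated start of the gene. It holds 1 TTCNNNGAA and 1 CACGTG and is not printed.
Cish: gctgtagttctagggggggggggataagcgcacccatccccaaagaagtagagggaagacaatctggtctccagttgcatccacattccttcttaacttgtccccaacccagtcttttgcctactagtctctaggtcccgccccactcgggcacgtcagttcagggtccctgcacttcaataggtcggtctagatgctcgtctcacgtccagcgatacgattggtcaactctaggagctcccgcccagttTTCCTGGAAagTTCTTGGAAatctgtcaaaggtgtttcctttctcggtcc
Socs3: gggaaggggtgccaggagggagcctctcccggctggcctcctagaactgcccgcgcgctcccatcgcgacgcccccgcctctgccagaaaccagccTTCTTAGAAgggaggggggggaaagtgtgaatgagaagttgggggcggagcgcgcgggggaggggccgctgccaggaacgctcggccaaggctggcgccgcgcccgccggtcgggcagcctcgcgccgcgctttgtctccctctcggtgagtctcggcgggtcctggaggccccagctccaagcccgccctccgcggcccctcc
Pim1: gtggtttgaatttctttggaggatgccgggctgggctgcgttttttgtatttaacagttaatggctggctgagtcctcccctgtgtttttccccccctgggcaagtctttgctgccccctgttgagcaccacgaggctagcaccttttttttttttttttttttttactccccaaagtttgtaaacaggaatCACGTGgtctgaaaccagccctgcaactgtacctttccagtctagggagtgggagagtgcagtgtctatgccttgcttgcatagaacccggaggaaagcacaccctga
Mxd4: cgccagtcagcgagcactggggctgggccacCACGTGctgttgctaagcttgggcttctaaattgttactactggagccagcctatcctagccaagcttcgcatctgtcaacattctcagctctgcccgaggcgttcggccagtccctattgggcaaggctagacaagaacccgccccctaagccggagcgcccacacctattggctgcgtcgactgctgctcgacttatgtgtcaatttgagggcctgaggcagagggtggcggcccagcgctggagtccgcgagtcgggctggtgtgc
Bcl6: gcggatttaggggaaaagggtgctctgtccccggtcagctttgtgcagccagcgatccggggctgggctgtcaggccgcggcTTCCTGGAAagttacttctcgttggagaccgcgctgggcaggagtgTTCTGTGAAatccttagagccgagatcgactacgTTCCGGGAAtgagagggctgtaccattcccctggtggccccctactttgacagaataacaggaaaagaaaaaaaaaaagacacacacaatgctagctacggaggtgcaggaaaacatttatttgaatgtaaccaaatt
The sites of Cish (TTCCTGGAA and TTCTTGGAA) begin at bases 1 and 12 from the start, the site of Socs3 (TTCTTAGAA) at base -154, and the E-boxes of Pim1 and Mxd4 at bases -58 and -219. The sites of Bcl6 (TTCCTGGAA, TTCTGTGAA and TTCCGGGAA) begin at bases -168, -122 and -88. A match describes letters only.

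Receptor genes moved in both directions. Il2rb, the signalling β chain of the IL-15 receptor, gave 1287 and 1223 CPM in WT, 987 and 1059 CPM in AAB and 525 and 509.9 CPM in BBA (-1.28 ± 0.09, adjusted p = 0.000195). Il2ra, the α chain of the IL-2 receptor, gave 13.6 and 12.7 CPM in WT and 7.46 and 6.27 CPM in BBA (-0.94 ± 0.27, adjusted p = 0.0305), and Il4ra gave 476 and 481 CPM in WT and 278 and 332 CPM in BBA (-0.65 ± 0.11, adjusted p = 0.00342). The BBA libraries were below the WT libraries for all 3 chains. WT and BBA libraries did not overlap in 2394 of all 2395 DEG. Il7r, the IL-7 receptor, went the other way, with 302 and 280.1 CPM in WT, 552 and 348 CPM in AAB and 787 and 671 CPM in BBA (1.33 ± 0.21, adjusted p = 0.00286). The common γ chain Il2rg (-0.28 ± 0.09) and Il15ra (-0.28 ± 0.22) were not called. Jak1 (0.60 ± 0.09), Jak2 (0.62 ± 0.08) and the gp130 chain Il6st (0.59 ± 0.08) were called higher just past the fold limit, and Jak3 (0.58 ± 0.18) just missed it. With TMM before the filter the list held 4 lower genes and 1 higher gene in place of 3 and 4. Of 14 genes listed, 13 passed the filter.

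Both anti-apoptotic and pro-apoptotic BCL-2 genes were among the losses. Bcl2, the main guardian of memory T cells against mitochondrial apoptosis, gave 1105 and 989.5 CPM in WT, 684 and 658 CPM in AAB and 319 and 278 CPM in BBA (-1.81 ± 0.11, adjusted p = 0.000122). Bcl2l1, which encodes BCL-XL, gave 90.9 and 84.1 CPM in WT, 68.4 and 85.7 CPM in AAB and 26.6 and 27.2 CPM in BBA (-1.70 ± 0.13, adjusted p = 0.000245). For Bcl2l1 the AAB libraries overlapped WT, and BBA lay below both. Mcl1 (0.22 ± 0.12) was not called. Bcl2a1b, 1 of a family of near-identical copies, was higher at a low level (4.15 and 3.10 CPM in WT and 9.01 and 6.27 CPM in BBA), and its value is uncertain for that reason. It was not called with TMM before the filter, which left 2 lower and 0 higher. Of the 9 pro-apoptotic genes that passed the filter, out of 13, Bax (-0.75 ± 0.09), Bid (-1.14 ± 0.17) and Pmaip1, which encodes NOXA (-1.25 ± 0.27), were lower. Bmf, a BH3-only killer, was higher with 1.29 and 1.55 CPM in WT and 7.67 and 4.89 CPM in BBA (2.13 ± 0.43, adjusted p = 0.0078). Bcl2l11, which encodes BIM, was not called (-0.07 ± 0.09).

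All 3 PIM kinases, which support growth and survival downstream of cytokine receptors, were lower. Pim1 gave 323 and 374 CPM in WT, 152 and 153 CPM in AAB and 100.0 and 109 CPM in BBA (-1.74 ± 0.10, adjusted p = 0.000122). Pim2 (-0.83 ± 0.12) and Pim3 (-0.62 ± 0.12) fell less, and Pim3 was no longer called on plain library totals.

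**Figure D2:**
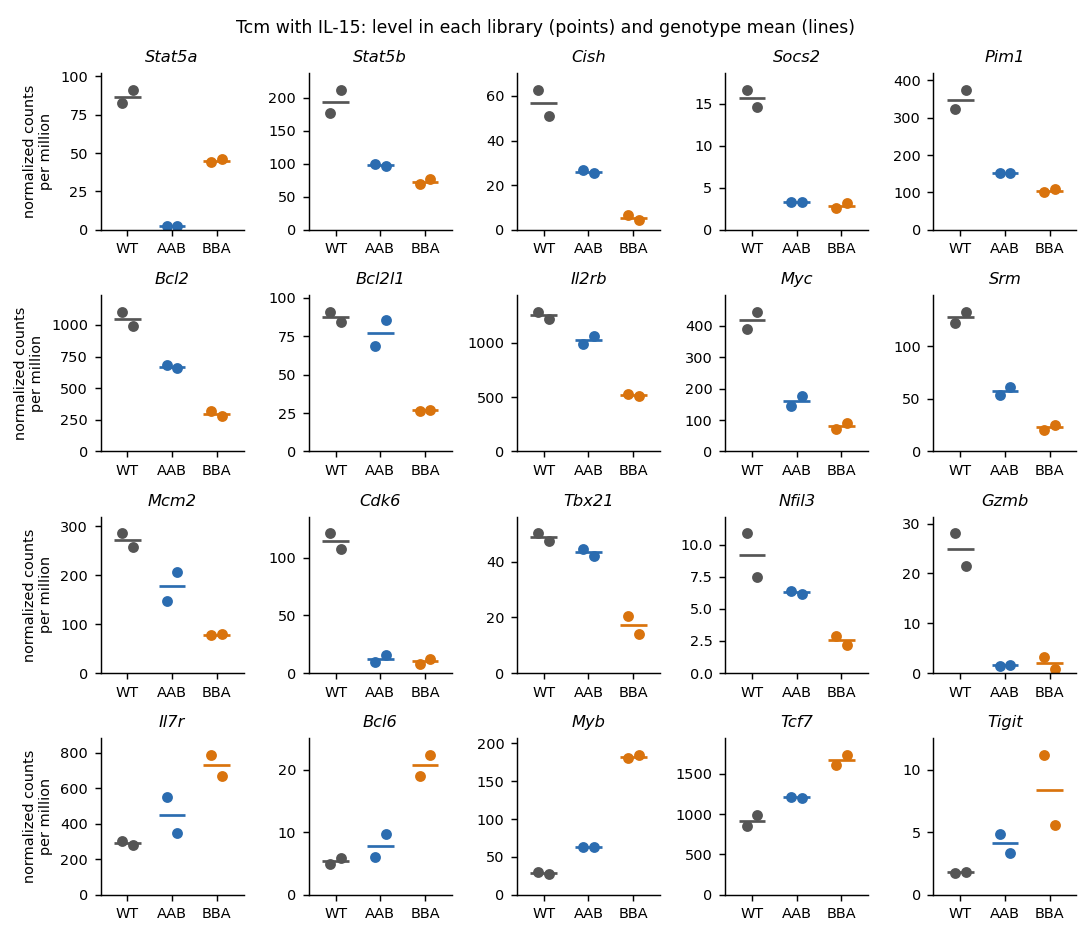
Level (normalized CPM, linear axis from 0) of 20 genes in Tcm with IL-15, with 1 point per library (2 per genotype) and a line at the genotype mean. From Stat5a to Gzmb the BBA points lie below the WT points, and in the bottom row (Il7r, Bcl6, Myb, Tcf7 and Tigit) they lie above them.

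Myc, the transcription factor that drives ribosome production and cell growth, was a further large loss. It gave 389 and 445 CPM in WT, 146 and 176 CPM in AAB and 72.5 and 89.7 CPM in BBA (-2.36 ± 0.15, adjusted p = 0.000125). Both AAB libraries lay between WT and BBA. Its partner Max (-0.43 ± 0.09) did not pass the fold limit. Mxd4, a repressor that competes with MYC for MAX, was higher (39.7 and 44.9 CPM in WT and 69.1 and 74.2 CPM in BBA; 0.76 ± 0.10). Of 12 genes of the network 10 passed the filter, and no other member was called. The network held 3 lower and 0 higher with TMM before the filter, and 1 and 2 with plain totals.

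Genes that build ribosomes fell together. Of 143 in the table, 142 passed the filter, 91 were lower (64.1% against 11.8% of all genes) and 0 were higher, with a median of -0.77 against 0.02 over all genes and 137 negative values. Grwd1, a chaperone of ribosomal protein, gave 66.1 and 64.2 CPM in WT, 32.5 and 35.4 CPM in AAB and 15.6 and 14.9 CPM in BBA (-2.09 ± 0.11, adjusted p = 9.18e-05). Nop2, an rRNA methyltransferase, gave 132 and 138 CPM in WT, 74.4 and 74.7 CPM in AAB and 40.4 and 38.1 CPM in BBA (-1.79 ± 0.08, adjusted p = 9.18e-05). In both, AAB lay between WT and BBA without overlap, and the AAB mean lay between them in 2276 of all 2395 DEG. Rrp12 (-1.92 ± 0.11), Gnl3, which encodes nucleostemin (-1.86 ± 0.15), the rRNA acetyltransferase Nat10 (-1.67 ± 0.09), Mybbp1a (-1.69 ± 0.10), Rrp15 (-1.70 ± 0.21) and Rrp1b (-1.63 ± 0.09) completed the leading members. The Pol I factors Ubtf (-0.31 ± 0.10) and Tcof1 (-0.29 ± 0.16) were not called.

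The step after ribosome assembly fell as well. Of 23 cytosolic aminoacyl-tRNA synthetases and their scaffold proteins, which load amino acids onto tRNA, 16 were lower (69.6%) and 0 higher (median -0.70), and all 23 values were negative. The scaffold gene Aimp2 fell the most (51.3 and 48.8 CPM in WT and 16.6 and 18.7 CPM in BBA; -1.503 ± 0.11, adjusted p = 0.000232), followed by Eef1e1 (-1.30 ± 0.20), Rars (-1.05 ± 0.11) and Vars (-1.03 ± 0.13). Of 46 initiation and elongation factors 20 were lower (43.5%) and 0 higher. Eif5a, whose hypusine helps ribosomes through difficult peptide bonds, gave 1016 and 989 CPM in WT, 490.1 and 522 CPM in AAB and 289.7 and 301 CPM in BBA (-1.76 ± 0.09, adjusted p = 9.18e-05). The helicase Eif4a1 gave 900.1 and 737 CPM in WT and 363 and 326 CPM in BBA (-1.25 ± 0.12, adjusted p = 0.000611). The most abundant factors, Eef1a1 (-0.28 ± 0.12) and Eef2 (-0.08 ± 0.16), were not called.

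Ribosomal protein genes themselves changed less. All 76 cytosolic members that passed the filter, of 83, had negative values (median -0.42), but 7 were called lower (9.21%), below the 11.8% of all genes. Rps2 was the exception in size, with 2797 and 2689 CPM in WT, 1835 and 1880.5 CPM in AAB and 1324 and 1304 CPM in BBA (-1.06 ± 0.09, adjusted p = 0.000355). With TMM before the filter 47 were lower and with plain totals 2, so the number rests on scaling. Many of these genes have processed pseudogenes with near-identical sequence, which makes single values uncertain. Of 77 mitochondrial ribosomal proteins 22 were lower (28.6%) and 0 higher, led by Mrps28 (-1.23 ± 0.17), Mrps18b (-1.08 ± 0.12) and Mrpl12 (-1.08 ± 0.11). This count was 49 with TMM before the filter and 17 with plain totals.

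Protein folding and nuclear transport followed the same direction. Of the 8 subunits of the CCT chaperonin, which folds actin and tubulin, and 6 mitochondrial chaperones, 12 of 14 were lower (85.7%, median -0.93). Cct3 gave 354 and 309 CPM in WT, 216 and 214 CPM in AAB and 139 and 126 CPM in BBA (-1.33 ± 0.10, adjusted p = 0.00026) and Hspd1, the mitochondrial HSP60, gave 316 and 250.4 CPM in WT, 167 and 162 CPM in AAB and 106 and 89.4 CPM in BBA (-1.53 ± 0.14, adjusted p = 0.000472). Cct4 (-0.49 ± 0.09) and Dnaja3 (-0.47 ± 0.12) did not pass the fold limit. Of 49 importin, exportin and nuclear pore genes 19 were lower (38.8%) and 0 higher. The importin Ipo4 gave 118 and 122 CPM in WT and 31.2 and 31.5 CPM in BBA (-1.94 ± 0.09, adjusted p = 9.18e-05), and the transport GTPase Ran (-1.40 ± 0.10) and its partners Ranbp1 (-1.66 ± 0.13) and Rcc1 (-1.40 ± 0.12) were also lower. The count was 31 with TMM before the filter and 17 with plain totals. Of 48 proteasome genes 16 were lower (33.3%), or 33 with TMM before the filter and 10 with plain totals. The exception was Psmb11, a subunit known from the cortical thymic epithelium, with 4.27 and 2.36 CPM in WT and 14.0 and 13.0 CPM in BBA (2.02 ± 0.34, adjusted p = 0.00378).

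Biosynthetic metabolism was lower at several entry points. Nucleotide, serine, one-carbon and polyamine synthesis had 25 of 37 genes lower (67.6%) and 0 higher, with a median of -0.998, out of 40 listed. Srm, spermidine synthase, gave 123 and 133 CPM in WT, 53.6 and 61.0 CPM in AAB and 20.5 and 25.2 CPM in BBA (-2.48 ± 0.13, adjusted p = 9.18e-05). Mthfd1 of the folate cycle gave 147 and 129.97 CPM in WT, 69.3 and 77.2 CPM in AAB and 32.9 and 36.3 CPM in BBA (-1.997 ± 0.11, adjusted p = 9.89e-05). In both genes the AAB libraries lay between WT and BBA. Nme1 (-2.02 ± 0.17), the serine synthesis gene Psat1 (-1.79 ± 0.17), the mitochondrial serine enzyme Shmt2 (-1.70 ± 0.11), the pyrimidine enzyme Cad (-1.70 ± 0.13), CTP synthase Ctps (-1.70 ± 0.18) and Impdh2 of guanine nucleotide synthesis (-1.66 ± 0.09) were the other leading members.

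Sterol and fatty acid synthesis lost 19 of 33 genes (57.6%), with 0 higher and a median of -0.76. Idi1 of the mevalonate route gave 89.9 and 69.0 CPM in WT, 63.1 and 66.0 CPM in AAB and 23.6 and 20.4 CPM in BBA (-1.86 ± 0.15, adjusted p = 0.000322). AAB was much nearer to WT than to BBA. Sqle (-1.53 ± 0.16), Cyp51 (-1.48 ± 0.13), Fasn, fatty acid synthase (-1.47 ± 0.15), and Fdps (-1.39 ± 0.11) were lower too. The regulators Srebf1 (-0.21 ± 0.11) and Srebf2 (-0.13 ± 0.13) were not called. Scd1 had the opposite sign (7.95 and 16.9 CPM in WT and 16.99 and 35.3 CPM in BBA), with more than a 2-fold spread within each genotype, and was not called (1.08 ± 0.48, adjusted p = 0.115).

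Glycolysis was touched at selected steps. Of 27 genes 9 were lower (33.3%) and 1 higher (median -0.37), or 15 and 1 with TMM before the filter and 9 and 2 with plain totals. Tpi1, triose phosphate isomerase, gave 138 and 122 CPM in WT, 58.8 and 64.4 CPM in AAB and 32.5 and 29.8 CPM in BBA (-2.06 ± 0.11, adjusted p = 9.18e-05). Eno1 (-1.42 ± 0.14), the lactate and pyruvate carrier Slc16a1 (-1.23 ± 0.12), hexokinase Hk2 (-1.15 ± 0.20), Tkt (-1.02 ± 0.11), Pgk1 (-0.97 ± 0.13), Gapdh (-0.73 ± 0.10), Pkm (-0.73 ± 0.11) and Ldha (-0.73 ± 0.09) were lower. Gapdh, Eno1 and Tpi1 have pseudogenes that could share reads. The gained member was Ldhb, the heart form of lactate dehydrogenase, with 3.39 and 3.47 CPM in WT and 10.3 and 13.3 CPM in BBA (1.78 ± 0.25, adjusted p = 0.00192). The glucose carriers Slc2a1 (-0.27 ± 0.10) and Slc2a3 (0.54 ± 0.08) were not called.

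In mitochondria 28 of 76 nuclear genes for oxidative phosphorylation were lower (36.8%) and 0 higher, led by the ATP synthase genes Atp5g1 (-1.23 ± 0.16) and Atp5b (923 and 840.3 CPM in WT and 447 and 439 CPM in BBA; -0.99 ± 0.09). The count was 59 with TMM before the filter and 21 with plain totals. Of 25 genes of the tricarboxylic acid cycle 6 were lower (24.0%), among them Suclg2 (-1.01 ± 0.12) and Idh3a (-0.91 ± 0.14), or 14 with TMM before the filter and 5 with plain totals. Of 13 amino acid transporters that passed the filter, out of 20, 4 were lower and 2 higher, or 8 and 1 with TMM before the filter and 3 and 2 with plain totals. Slc7a5, the large neutral amino acid carrier, gave 149 and 153 CPM in WT, 52.9 and 66.2 CPM in AAB and 26.4 and 30.2 CPM in BBA (-2.41 ± 0.13, adjusted p = 9.60e-05). Its heavy chain partner Slc3a2 (-0.44 ± 0.08) did not pass the fold limit. Slc7a1, a carrier of arginine, was lower (-1.31 ± 0.11), and the lysosomal arginine carrier Slc38a9 was higher (0.64 ± 0.10).

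Cell cycle genes split by phase. DNA replication genes had 32 of 42 lower (76.2%), 0 higher and a median of -1.122. Uhrf1, which keeps DNA methylation through replication, gave 112 and 114 CPM in WT, 40.2 and 85.0 CPM in AAB and 16.4 and 16.9 CPM in BBA (-2.76 ± 0.32, adjusted p = 0.00104). The licensing factor Cdc6 gave 19.4 and 16.5 CPM in WT, 8.06 and 13.0 CPM in AAB and 2.59 and 3.01 CPM in BBA (-2.67 ± 0.29, adjusted p = 0.000823). AAB replicate 1 was lower than AAB replicate 2 in both, but neither reached the BBA level. The helicase gene Mcm5 gave 229 and 196 CPM in WT, 91.5 and 159.7 CPM in AAB and 54.2 and 54.0 CPM in BBA (-1.98 ± 0.24, adjusted p = 0.00123), and E2f1 (-2.27 ± 0.22), Cdc45 (-2.13 ± 0.32), Gins1 (-2.08 ± 0.32), Gins2 (-2.08 ± 0.39) and Orc1 (-1.91 ± 0.26) were also lower.

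Mitosis genes as a list showed no such loss. Of 36 listed, 24 passed the filter, 1 was lower (Cdc20, -0.59 ± 0.14) and 4 were higher (16.7% against 11.9%), and the median was 0.04. The higher members were Ube2c (5.44 and 4.40 CPM in WT and 18.5 and 13.0 CPM in BBA; 1.67 ± 0.24), Cenpa (1.21 ± 0.17), Cenpf (0.97 ± 0.30) and Hmmr (0.83 ± 0.20). The proliferation marker Mki67 gave 43.0 and 41.5 CPM in WT, 26.7 and 51.0 CPM in AAB and 32.2 and 18.5 CPM in BBA (-0.75 ± 0.34, adjusted p = 0.117) and was not called. For Mki67 the libraries of AAB and of BBA lay apart from each other. Top2a, the most negative member, was not called either (-1.04, from -1.53 to -0.63 over the settings of the closing section). The counts were 4 lower and 2 higher with TMM before the filter, and 0 and 5 with plain totals.

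Among regulators of the G1 phase Cdk6 stood out. It gave 121 and 107 CPM in WT, 9.19 and 15.5 CPM in AAB and 8.29 and 12.1 CPM in BBA (-3.47 ± 0.26, adjusted p = 0.000245), and AAB overlapped BBA, which held 8.93% of the WT level. Its partner cyclins Ccnd2 (947 and 895 CPM in WT, 844 and 856 CPM in AAB and 402 and 399 CPM in BBA; -1.20 ± 0.09, adjusted p = 0.000195) and Ccnd3 (-0.75 ± 0.09) and Cdk4 (-1.07 ± 0.10) were lower. For Ccnd2 the AAB libraries lay close to WT. Ccng2, a cyclin linked to arrest, rose (45.9 and 48.9 CPM in WT and 116 and 106 CPM in BBA; 1.23 ± 0.10, adjusted p = 0.000305), as did Rb1 (0.62 ± 0.12), while the inhibitor Cdkn1b (0.58 ± 0.11) ended just under the fold limit. Of 19 genes 14 passed the filter, 4 were lower and 2 higher, or 4 and 1 with TMM before the filter.

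Effector genes were divided. Tnf gave 69.6 and 64.6 CPM in WT, 14.9 and 14.7 CPM in AAB and 7.15 and 3.18 CPM in BBA (-3.74 ± 0.29, adjusted p = 0.000259) and its neighbour Lta, lymphotoxin α, gave 65.4 and 53.3 CPM in WT, 11.3 and 13.5 CPM in AAB and 11.5 and 9.78 CPM in BBA (-2.48 ± 0.17, adjusted p = 0.000154). Gzmb, the apoptosis-inducing granzyme B, gave 28.1 and 21.6 CPM in WT, 1.47 and 1.62 CPM in AAB and 3.21 and 0.815 CPM in BBA (-3.68 ± 0.48, adjusted p = 0.0015). AAB lay between WT and BBA for Tnf, and overlapped BBA for Lta and Gzmb. Gzma (-1.54 ± 0.45) and Nkg7 (-0.66 ± 0.14) were also lower. Gzmm was lower in BBA and higher in AAB, with 35.1 and 22.8 CPM in WT, 113 and 97.8 CPM in AAB and 16.9 and 12.8 CPM in BBA (-0.97 ± 0.23, adjusted p = 0.0145). Perforin (Prf1) gave 116 and 104 CPM in WT, 216 and 207 CPM in AAB and 122 and 135 CPM in BBA, and BBA was not called against WT (0.23 ± 0.10).

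Gzmk and Ccl5 depended on a single library. Gzmk gave 4.44 and 0.807 CPM in WT, 11.99 and 7.30 CPM in AAB and 73.6 and 7.58 CPM in BBA (3.92 ± 1.09, adjusted p = 0.0261). Without BBA replicate 1 its log2 fold change was 1.52 and no longer called, and it was not called without WT replicate 2 either (3.15). Ccl5 gave 71.0 and 54.1 CPM in WT and 139.9 and 18.01 CPM in BBA (0.32 ± 0.74), and without BBA replicate 1 the value was -1.80. Fasl (8.71 and 2.85 CPM in WT and 2.49 and 0.407 CPM in BBA) differed by -2.07 ± 0.78 and was not called. Of 22 cytotoxic and cytokine genes 16 passed the filter, 6 were lower and 2 higher (7 and 1 with TMM before the filter), and Ifng, Il2, Csf2, Ccl3, Ccl4 and Gzmc were below the filter.

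Transcription factors of effector and memory cells changed without a common direction. Tbx21 (T-bet), which with its relative Eomes sets CD122 expression, gave 50.2 and 47.3 CPM in WT, 44.6 and 42.1 CPM in AAB and 20.4 and 14.0 CPM in BBA (-1.51 ± 0.17, adjusted p = 0.00091). Eomes gave 256 and 282 CPM in WT and 266 and 272 CPM in BBA and did not differ beyond the spread (0.00 ± 0.09). Nfil3 (-1.85 ± 0.30), Bhlhe40 (-0.78 ± 0.20) and Hopx (-0.79 ± 0.21) were lower. Ikzf3 (Aiolos) gave 219.8 and 249 CPM in WT, 349.7 and 430.3 CPM in AAB and 497 and 519 CPM in BBA (1.115 ± 0.12, adjusted p = 0.000882), and Maf (1.58 and 1.74 CPM in WT and 7.56 and 7.50 CPM in BBA; 2.18 ± 0.28), Prdm1, which encodes BLIMP-1 (1.81 ± 0.34), Ikzf2 (1.496 ± 0.35), Rora (1.43 ± 0.21), Irf4 (1.125 ± 0.27), Runx1 (0.80 ± 0.14) and Gata3 (0.60 ± 0.10) were higher. That made 4 lower and 8 higher (42.1%) of 19 that passed the filter, or 4 and 6 with TMM before the filter. Maf did not reach the filter in WT and entered the list through other libraries.

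Factors of naive and stem-like T cells leaned upward. All 17 listed passed the filter and all 17 values were positive, 6 were higher (35.3%) and 0 lower, and the median was 0.45. Myb, which supports stem-like memory CD8+ T cells, gave 30.5 and 27.2 CPM in WT, 62.8 and 63.2 CPM in AAB and 180.2 and 185 CPM in BBA (2.66 ± 0.09, adjusted p = 9.18e-05). Bcl6, a repressor that opposes BLIMP-1, gave 4.85 and 5.96 CPM in WT, 6.06 and 9.68 CPM in AAB and 19.1 and 22.4 CPM in BBA (1.94 ± 0.26, adjusted p = 0.00185). Tcf7, which encodes TCF-1, gave 851 and 985 CPM in WT, 1216 and 1203 CPM in AAB and 1607 and 1735 CPM in BBA (0.86 ± 0.11, adjusted p = 0.00122). AAB lay between WT and BBA in all 3. Lef1 (0.80 ± 0.11), Pou6f1 (0.95 ± 0.25) and Zfp36l2 (0.68 ± 0.18) were the other higher members, and Foxo1 (0.53 ± 0.15), Klf2 (0.48 ± 0.28) and Bach2 (0.45 ± 0.10) were not called. With TMM before the filter 4 were called higher and the median was 0.19. The uniform sign depended on the setting. Over the settings of the closing section the lowest values of Foxp1, Foxo3 and Satb1 were -0.21, -0.11 and -0.06.

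Homing receptors rose in 8 of 23 genes (34.8%) and fell in 1, or 7 and 1 with TMM before the filter. Ccr9, the receptor for a gut chemokine, gave 6.90 and 9.31 CPM in WT, 27.0 and 25.3 CPM in AAB and 64.5 and 76.7 CPM in BBA (3.13 ± 0.17, adjusted p = 9.60e-05). Cxcr5, the follicle receptor, gave 38.8 and 47.0 CPM in WT, 97.5 and 78.0 CPM in AAB and 102 and 94.4 CPM in BBA (1.20 ± 0.14, adjusted p = 0.0011), where AAB overlapped BBA. Cxcr4 gave 52.8 and 39.0 CPM in WT, 77.6 and 61.2 CPM in AAB and 114 and 129 CPM in BBA (1.41 ± 0.17, adjusted p = 0.00123). Cx3cr1 (1.87 and 2.36 CPM in WT and 13.9 and 10.1 CPM in BBA; 2.50 ± 0.28) and Ccr6 (2.03 ± 0.59) rose from low levels, and Gpr183 (1.08 ± 0.09), Itga4 (1.06 ± 0.19) and S1pr1 (0.70 ± 0.09) were higher. Cxcr5, Ccr6, Cxcr4 and Gpr183 are also expressed by B cells, whose markers had higher sums in BBA. The gate marker Cd44 (0.23 ± 0.21) and the lymph node receptor Ccr7 (0.12 ± 0.10) were not called.

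Inhibitory checkpoint genes were higher in 5 of 12 (41.7%) and lower in 1, out of 17 listed, or 4 and 1 with TMM before the filter. Lag3 gave 4.97 and 9.55 CPM in WT, 12.9 and 17.9 CPM in AAB and 36.0 and 26.1 CPM in BBA (2.09 ± 0.33, adjusted p = 0.00297). Ctla4 gave 8.19 and 9.12 CPM in WT, 11.9 and 11.2 CPM in AAB and 35.1 and 23.4 CPM in BBA (1.75 ± 0.21, adjusted p = 0.00123) and Tox, a factor of exhausted cells, gave 13.5 and 15.7 CPM in WT, 25.2 and 27.8 CPM in AAB and 46.1 and 35.9 CPM in BBA (1.49 ± 0.16, adjusted p = 0.000764). The WT and BBA libraries did not overlap in any of the 3, as in 2394 of all 2395 DEG. Tigit (2.20 ± 0.42) and Cd96 (0.62 ± 0.14) were also higher and Lair1 was lower (-0.88 ± 0.20). Pdcd1 (PD-1) gave 2.63 and 0.620 CPM in WT and 10.7 and 2.85 CPM in BBA and was not called (2.02 ± 0.76, adjusted p = 0.0708).

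Among TNF family genes Tnfrsf18, which encodes the costimulatory receptor GITR, fell (146 and 137 CPM in WT, 74.4 and 73.9 CPM in AAB and 46.5 and 43.0 CPM in BBA; -1.66 ± 0.09, adjusted p = 9.18e-05), as did Tnfsf8 (-0.93 ± 0.16). The death receptors Tnfrsf10b (47.2 and 31.3 CPM in WT and 105 and 107 CPM in BBA; 1.43 ± 0.28) and Fas (0.74 ± 0.12) rose. This list held 2 lower (14.3%) and 2 higher (14.3%) of 14 that passed the filter, or 2 and 1 with TMM before the filter. Both shares were near the 11.8% and 11.9% of all genes. The T cell receptor list was nearly flat, with Cd28 (0.77 ± 0.17) the single call among 23 genes and a median of 0.01, or 2 lower and 0 higher with TMM before the filter. Of 20 NK receptor genes 5 passed the filter. Klrc1, the inhibitory NKG2A chain, was lower (33.7 and 12.8 CPM in WT and 8.91 and 6.27 CPM in BBA; -1.62 ± 0.46) and Klrd1, its CD94 partner, higher (0.80 ± 0.19), and with TMM before the filter the list held 1 lower and 0 higher.

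Interferon genes were counted in separate lists. Of 15 interferon-induced GTPases 5 were lower (33.3%) and 0 higher, or 8 and 0 with TMM before the filter. Gbp4 gave 383 and 413 CPM in WT, 275 and 288 CPM in AAB and 174 and 164 CPM in BBA (-1.23 ± 0.09, adjusted p = 0.000203) and Igtp gave 357 and 354 CPM in WT, 189 and 224 CPM in AAB and 164 and 129 CPM in BBA (-1.28 ± 0.14, adjusted p = 0.000777), and Gbp10 (-1.48 ± 0.35), Irgm2 (-0.70 ± 0.16) and Ifi47 (-0.62 ± 0.13) fell as well. Type I interferon-stimulated genes had 6 of 29 higher (20.7%) and 3 lower. The higher genes were Oas2, Slfn5, Ifit1, Ifit3, Isg15 and Irf7, from 0.68 to 1.22, and Bst2 (-1.06 ± 0.10) was lower. These counts became 2 and 3 with TMM before the filter. Of 19 MHC class I and antigen processing genes 3 were lower (15.8% against 11.8% of all genes). These were Erap1 (-0.85 ± 0.12), Canx (-0.76 ± 0.10) and Psme2 (-0.65 ± 0.13). The MHC heavy chain H2-K1 (-0.21 ± 0.11) and B2m (-0.09 ± 0.19) were not called. Of this list 8 were lower with TMM before the filter and 2 with plain totals.

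Immediate early genes and their feedback had 6 of 24 higher and 3 lower. The NF-κB inhibitors Tnfaip3 (31.8 and 40.6 CPM in WT and 97.6 and 70.9 CPM in BBA; 1.22 ± 0.18, adjusted p = 0.00224) and Nfkbia (0.63 ± 0.10), the antiproliferative genes Btg1 (432 and 496 CPM in WT and 882 and 888 CPM in BBA; 0.93 ± 0.10, adjusted p = 0.000782) and Btg2 (0.75 ± 0.17), and the phosphatases Dusp4 (2.03 ± 0.42) and Dusp10 (0.77 ± 0.12) rose. Ier3 (-1.26 ± 0.27), Dusp5 (-1.08 ± 0.21) and Fosl2 (-0.70 ± 0.14) fell. With TMM before the filter this turned to 3 higher and 5 lower, and with plain totals to 10 and 3. Egr1 (1.07 ± 0.38) and Nr4a1 (1.34 ± 0.53) were not called.

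Catabolic and chromatin lists held few calls, and their direction depended on scaling. Of 33 regulators of PI3K, mTORC1 and FOXO 2 were higher, the PI3K inhibitor Pik3ip1 (135 and 173 CPM in WT and 253 and 294 CPM in BBA; 0.83 ± 0.15) and the AKT phosphatase Phlpp1 (0.86 ± 0.15), or 2 lower and 1 higher with TMM before the filter and 0 and 5 with plain totals. Of 28 autophagy genes 3 were higher (Atg9a, 0.77 ± 0.12; Atg14, 0.71 ± 0.13; Gabarapl1, 0.997 ± 0.29), and 0 with TMM before the filter. Of 38 lysosome genes 6 were higher (15.8%) and 1 lower, led by Atp6v0a1 (2.07 ± 0.43) and Ctsl (1.42 ± 0.26). The myeloid marker sums given above were higher too, and the part of myeloid cells was not tested. The lysosome list held 3 higher and 3 lower with TMM before the filter. Of 19 SMAD and TGF-β genes 1 was lower (Bmpr1a, -1.57 ± 0.42), and of 34 histone methyltransferases and demethylases Suv39h1 was lower (-0.68 ± 0.10) and Kmt2a (0.62 ± 0.10) and Kdm5b (0.71 ± 0.08) higher. With TMM before the filter the SMAD list held 2 lower and 0 higher and the histone list 5 lower and 0 higher, and with plain totals the SMAD list held 1 lower and 5 higher. The medians of the autophagy, lysosome, SMAD, histone, PI3K, TNF family, zinc finger, T cell receptor, mitosis, MYC network and STAT lists changed sign with TMM before the filter. Of 246 zinc finger Zfp genes that passed the filter, out of 333, 31 were higher (12.6%) and 3 lower, close to the 11.9% of all genes on the higher side. For these genes 16 were higher and 9 lower with TMM before the filter, and 45 and 3 with plain totals.

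**Figure D3:**
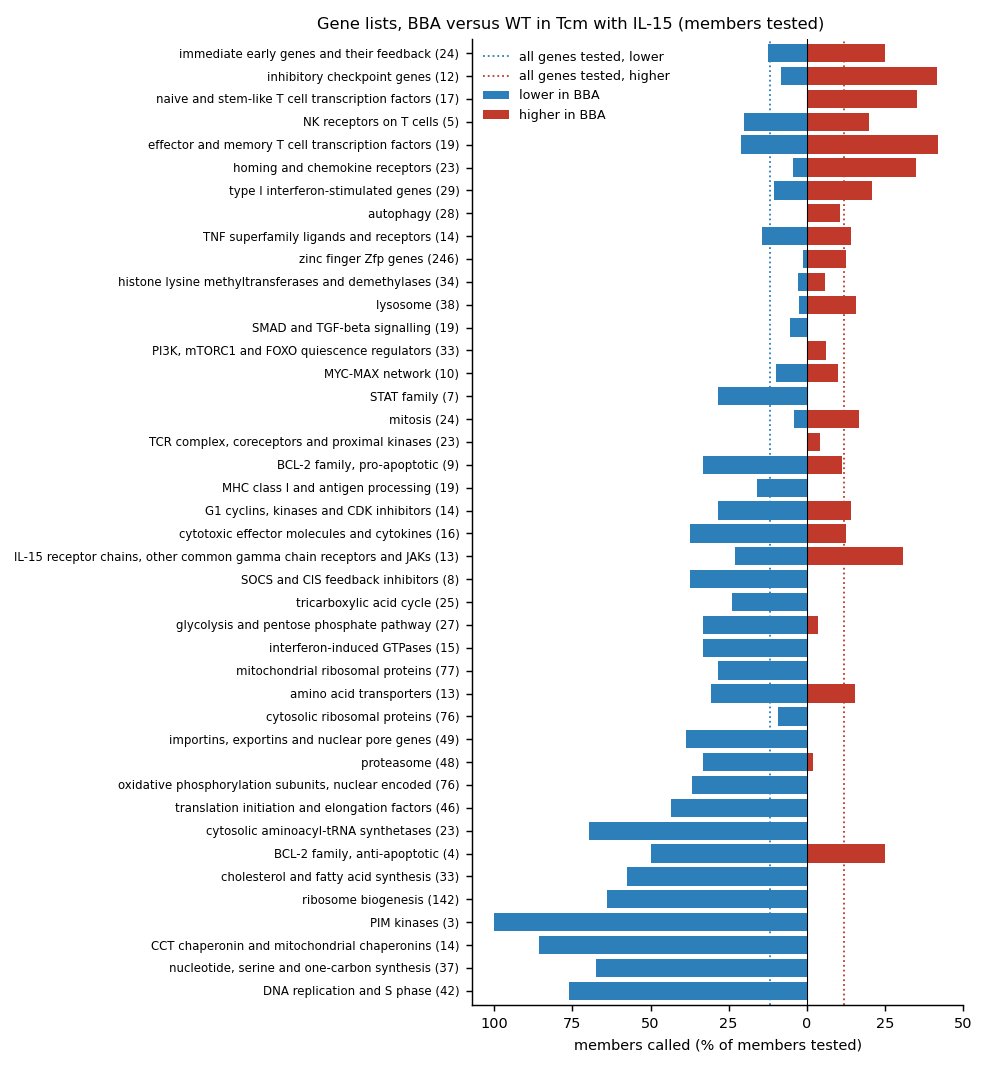
Each row is a gene list with its number of members tested, and bars give the percentage of these members called lower (left) or higher (right) in BBA than in WT, with dotted lines at the shares over all genes tested (11.8% and 11.9%). The chaperonin list reaches 85.7% lower and DNA replication 76.2%, while the effector and memory transcription factor list reaches 42.1% higher. Shares called higher include genes that did not reach the filter in WT.

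By the rule for the largest fold changes, the losses were led by AA467197, with 7.48 and 8.25 CPM in WT and 0 and 0.244 CPM in BBA. From 261 counts in WT and 3 in BBA its ratio of WT over BBA was 57.4, with a 95% interval for counting error of 19.4 to 280. Drc1, a dynein regulatory gene of cilia, followed with 82.8 and 62.0 CPM in WT, 43.4 and 57.6 CPM in AAB and 2.69 and 2.93 CPM in BBA (-4.68 ± 0.24, adjusted p = 9.18e-05). The guanylate-binding gene Gbp11 gave 15.96 and 29.2 CPM in WT, 3.60 and 3.06 CPM in AAB and 0.932 and 0.896 CPM in BBA (-4.62 ± 0.40, adjusted p = 0.000391). Gbp11 was low in AAB too, and Drc1 was not. D630039A03Rik, Gm6548, Stc2, 5830411N06Rik, Gp49a, Cdca7, Cd163l1 and Chek1 had log2 fold changes from -4.14 to -3.24. Of these Chek1, the S phase checkpoint kinase, gave 20.9 and 14.6 CPM in WT, 6.26 and 12.2 CPM in AAB and 1.86 and 1.87 CPM in BBA. Tnf, Gzmb, Cdk6 and Cish, given above, completed the 15.

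The gains were led by genes with no count in WT. Unc5a, a netrin receptor, had 0 counts in both WT libraries and 16.8 and 10.3 CPM in BBA, at least 72.9-fold higher than 3 counts per WT library would give. Rnaset2b, 1 of a pair of near-identical copies, had 0 counts in WT and 12.2 and 12.5 CPM in BBA, at least 66.6-fold higher. Otog gave 0.819 and 1.43 CPM in WT, 2.33 and 174 CPM in AAB and 469.9 and 193 CPM in BBA (8.203 ± 1.88, adjusted p = 0.0129). Its AAB libraries lay far apart, and Otog was not called without WT replicate 1 (7.85) or WT replicate 2 (8.62). Rab6b gave 0.526 and 2.23 CPM in WT and 21.5 and 38.5 CPM in BBA (4.46 ± 0.55, adjusted p = 0.00123). Slc6a19, a carrier of neutral amino acids, gave 1.46 and 1.80 CPM in WT and 40.9 and 27.2 CPM in BBA (4.38 ± 0.36, adjusted p = 0.000322). Camk2b gave 1.93 and 3.10 CPM in WT and 29.2 and 37.6 CPM in BBA (3.73 ± 0.27, adjusted p = 0.000207). P2rx7, the receptor for extracellular ATP, gave 0.877 and 1.74 CPM in WT, 8.93 and 10.5 CPM in AAB and 14.9 and 10.3 CPM in BBA. The rule that named the leading genes required that the WT and BBA libraries not overlap.

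Other leading gains were uneven or shared markers with other cells. Gm14085 gave 8.65 and 7.13 CPM in WT and 201 and 13.6 CPM in BBA, and without BBA replicate 1 its log2 fold change was 0.78 in place of 3.75 ± 1.04. Ret gave 0.994 and 0.682 CPM in WT and 22.3 and 3.99 CPM in BBA. Igj, the joining chain of antibodies made by plasma cells, gave 0.468 and 0.124 CPM in WT, 3.73 and 7.24 CPM in AAB and 14.1 and 9.04 CPM in BBA (5.22 ± 0.60, adjusted p = 0.000984), and Csf1r, the macrophage growth factor receptor, gave 0.877 and 0.434 CPM in WT, 0.933 and 1.94 CPM in AAB and 10.9 and 7.33 CPM in BBA (3.76 ± 0.51, adjusted p = 0.00181). Both were higher in BBA than in WT, as were the B cell and myeloid sums given above, and Csf1r is itself in the myeloid sum. The order of single libraries differed in part. The B cell sum was 183 CPM in WT replicate 2 and 74.96 CPM in AAB replicate 1, with Igj at 0.124 and 3.73 CPM. The myeloid sum was 61.62 CPM in AAB replicate 2 and 45.87 CPM in BBA replicate 2, with Csf1r at 1.94 and 7.33 CPM. The part of such cells was not tested. 2410017I17Rik (ratio of BBA over WT 143, 95% interval 39.1 to 1191, from 2 counts in WT), H2-Ea-ps and Gm8909 lie within the major histocompatibility region of chromosome 17, and Gm8909 overlaps 2410017I17Rik, so both values are uncertain.

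Without cytokine the genotypes differed far less. In the separate fit of Tcm without cytokine 28 of 9741 genes (0.287%) were called, with a coefficient of biological variation of 17.04% against 12.0% with IL-15, and all 28 were also DEG with IL-15, in the same direction (100% of the former and 1.17% of the latter). They included the losses of Bcl2 (-1.58 ± 0.13 without cytokine), Drc1 (-5.43 ± 0.68), Il18r1 (-2.02 ± 0.19) and Il18rap (-1.32 ± 0.15), both chains of the IL-18 receptor, Igfbp4, Smc6 and Ahnak, and the gains of Myb (1.04 ± 0.13), Bcl6 (1.41 ± 0.18), Ccr9 (1.97 ± 0.23), Rab6b, Slc6a19, Gm8909 and H2-Ea-ps. Il18r1, Il18rap, Igfbp4, Smc6 and Ahnak were named after their values were seen. Cells without cytokine are described as cultured in the labels and as used directly ex vivo in the study's methods, so the time in culture and the cytokine cannot be told apart.

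**Figure D4:**
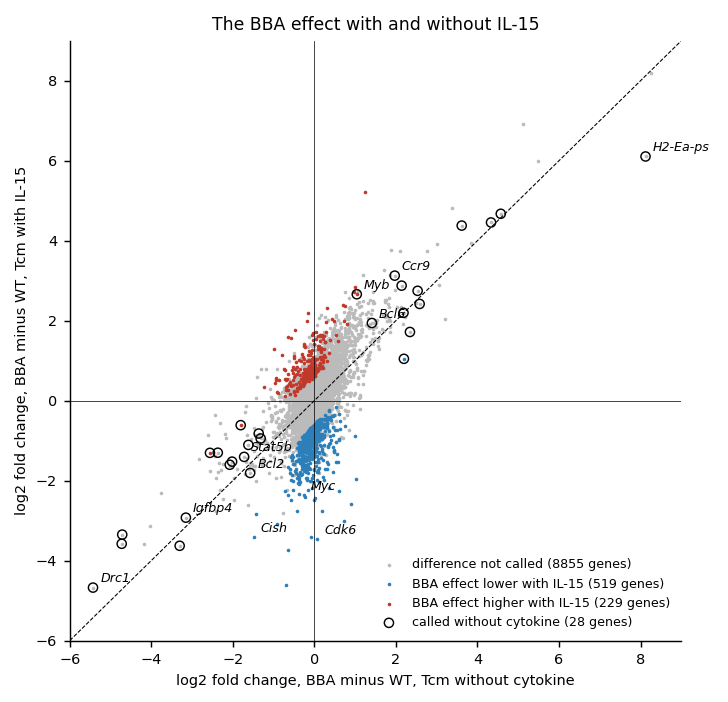
Each point is a gene tested in Tcm both without cytokine (x axis, log2 fold change of BBA over WT) and with IL-15 (y axis, same measure), coloured where the difference of both effects was called and ringed where called without cytokine. Bcl2, Drc1 and Ccr9 are ringed near the dashed line of equal effects, while Cdk6, Myc and Cish lie below it.

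A direct test of the difference, subtracting the effect of BBA without cytokine from that with IL-15, called 534 genes more negative with IL-15 (5.24% of 10190) and 260 more positive (2.55%). Of the 142 ribosome biogenesis genes 62 were more negative and 0 more positive. The same counts were 22 and 0 of 37 for nucleotide synthesis, 21 and 0 of 42 for DNA replication, 19 and 0 of 49 for nuclear transport, 14 and 0 of 33 for sterol and fatty acid synthesis, 11 and 0 of 14 for chaperonins, 11 and 0 of 27 for glycolysis and 10 and 0 of 23 for tRNA synthetases. Cytosolic ribosomal proteins had 0 and 0 of 76. Their median was -0.39 without cytokine and -0.42 with IL-15. Myc, Il2rb, Socs1, Cish, Pim2, Bcl2l1 and Bax were more negative with IL-15 and Il7r, Myb, Mxd4, Cxcr4, Cxcr5, Gpr183 and Tox more positive, while Bcl2, Pim1, Socs2, Bcl6 and Ccr9 were not called in this test.

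The single-gene pattern of Cdk6 shows what the test measures. On a scale common to all 48 CD8+ libraries, Cdk6 was at 8.75 and 13.1 CPM in WT without cytokine and 121 and 107 CPM with IL-15. In BBA it was at 7.65 and 14.8 CPM without cytokine and 7.92 and 11.6 CPM with IL-15 (difference of log2 fold changes -3.54 ± 0.51, adjusted p = 0.00394). Gzmb had the same form, with 4.68 and 2.54 CPM in WT and 6.67 and 2.39 CPM in BBA without cytokine, and 28.0 and 21.6 CPM and 3.07 and 0.786 CPM with IL-15 (-4.07 ± 0.95, adjusted p = 0.0288). In both genes the 4 libraries without cytokine overlapped between genotypes.

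Naive cells (Tnv) and effector memory cells (Tem) with IL-15 showed related but smaller sets. In their own fits 940 genes were called in Tnv and 189 in Tem. Of these, 659 in Tnv (70.1% of its calls, 27.5% of the Tcm calls) and 168 in Tem (88.9% and 7.01%) were Tcm DEG in the same direction, and 2 and 0 in the opposite direction. The spread between libraries was larger in these sets, with a coefficient of biological variation of 18.1% in Tnv and 31.2% in Tem against 12.0% in Tcm. The tests of the difference called 20 genes for Tcm minus Tnv (0.193%), of which 20 were more negative in Tcm, and 1 gene for Tcm minus Tem (0.00927%). At an unadjusted p under 0.05 there were 1497 and 975 genes, and DESeq2 called 264 (66 of them more positive in Tcm) and 114 (32 more positive). A replicate block in the fit called 282 (72 more positive) and 113 (52 more positive).

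The genes that differed from Tnv included S phase genes. Chek1 was at 1.01 and 1.53 CPM in WT and 3.90 and 1.93 CPM in BBA Tnv, against 20.9 and 14.6 CPM and 1.78 and 1.81 CPM in Tcm (difference -4.45 ± 0.66, adjusted p = 0.032). Cdc6 differed by -3.85 ± 0.48, adjusted p = 0.0273. The gene that differed from Tem was Odc1, ornithine decarboxylase, the entry enzyme of polyamine synthesis. It was at 69.7 and 64.7 CPM in WT and 62.0 and 66.8 CPM in BBA Tem, against 128 and 112 CPM and 39.7 and 39.5 CPM in Tcm (-1.51 ± 0.14, adjusted p = 0.0172). This call was lost in each of the 4 fits that left out 1 Tcm library. List medians of BBA minus WT in Tcm without cytokine, Tnv with IL-15 and Tem with IL-15 were -0.19, -0.42 and -0.56 for ribosome biogenesis, -0.12, -0.43 and -0.55 for nucleotide synthesis, and 0.05, -0.04 and -0.15 for DNA replication. In Tcm with IL-15 the median of DNA replication was -1.122. The direct tests against Tnv and against Tem called 3 and 0 genes of DNA replication, 0 and 0 of ribosome biogenesis and 0 and 1 of nucleotide synthesis.

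**Figure D5:**
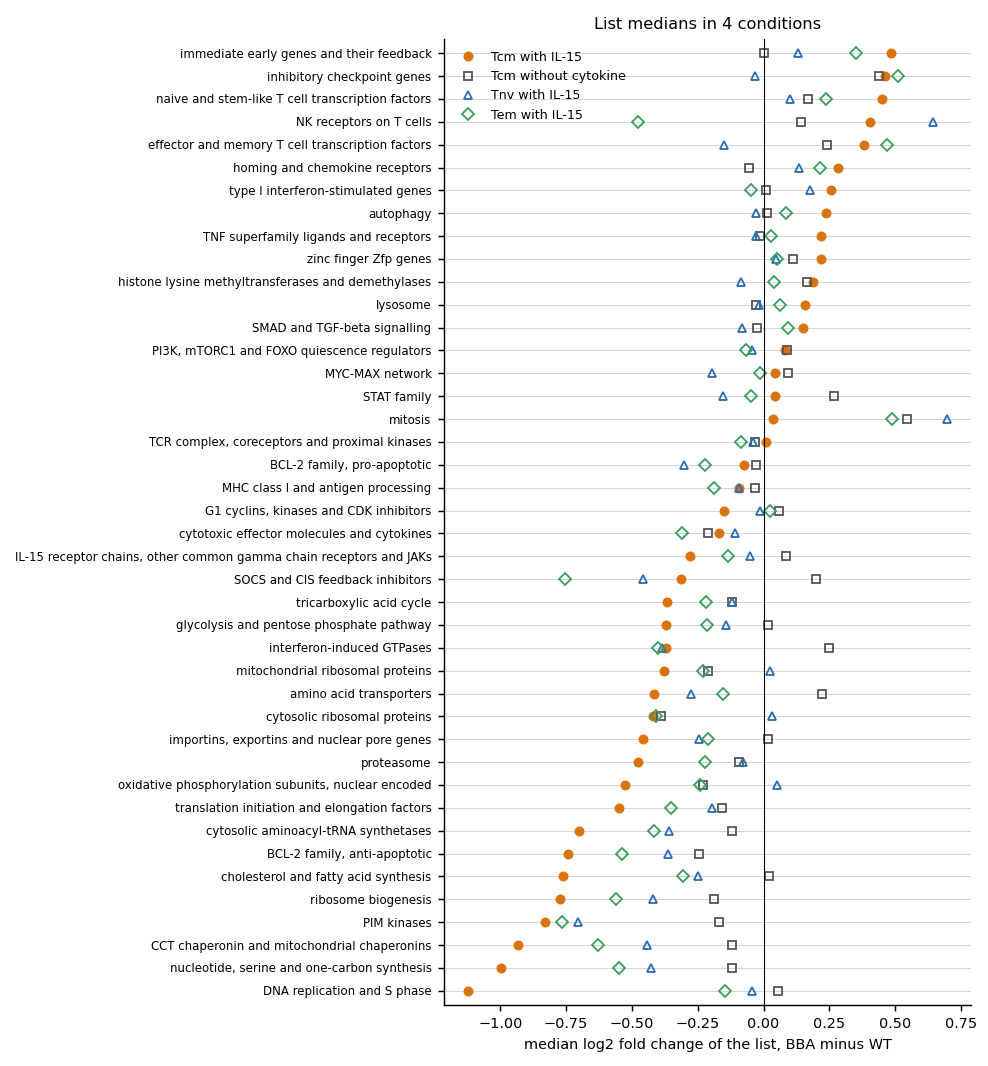
Median log2 fold change of BBA over WT of each gene list (rows) in Tcm with IL-15, Tcm without cytokine, Tnv with IL-15 and Tem with IL-15, each from its own fit. Ribosome biogenesis is at -0.77 in Tcm with IL-15 and at -0.19 without cytokine, and DNA replication at -1.12 and 0.05.

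BBA was also tested directly against AAB, which carries 1 allele as well but of Stat5b. This called 319 genes lower in BBA (3.16%) and 286 higher (2.83%). Without BBA replicate 2 there were 107 and 71, without BBA replicate 1 168 and 118, and with all 48 CD8+ libraries in the fit 196 and 68. Against WT, AAB cells had 258 lower and 173 higher genes, and both comparisons with WT share the WT libraries. Lower in BBA than in AAB were 33 of 142 ribosome biogenesis genes, 15 of 37 nucleotide synthesis genes, 15 of 33 sterol and fatty acid genes, 14 of 42 replication genes and 5 of 14 chaperonins, and 0 of these were higher. The list medians against WT were -0.41 in AAB and -0.77 in BBA for ribosome biogenesis, -0.51 and -1.122 for DNA replication, and -0.17 and -0.76 for sterol and fatty acid synthesis.

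Single genes fell into separate patterns. Lower in BBA than in AAB were Cish (-2.30 ± 0.20, adjusted p = 0.00374), Bcl2l1 (-1.52 ± 0.13, adjusted p = 0.00374), Bcl2 (-1.17 ± 0.11, adjusted p = 0.00374), Il2rb (-0.98 ± 0.09, adjusted p = 0.00374), Tbx21 (-1.34 ± 0.17, adjusted p = 0.00913), Ccnd2 (-1.09 ± 0.09, adjusted p = 0.00374) and Gzmm (-2.83 ± 0.23, adjusted p = 0.00374). Prf1 was lower in BBA than in AAB as well (-0.72 ± 0.10, adjusted p = 0.0105), with AAB above WT. Higher in BBA than in AAB were Myb (1.53 ± 0.09, adjusted p = 0.000773), Bcl6 (1.40 ± 0.26, adjusted p = 0.024) and Ccr9 (1.44 ± 0.15, adjusted p = 0.00551). Socs2, Cdk6, Gzmb and Cxcr5 were not called between BBA and AAB, with -0.18 ± 0.25, adjusted p = 0.667 for Socs2, -0.27 ± 0.27, adjusted p = 0.554 for Cdk6, 0.32 ± 0.56, adjusted p = 0.745 for Gzmb and 0.16 ± 0.14, adjusted p = 0.468 for Cxcr5. These 4 genes were called between AAB and WT, at -2.25, -3.20, -4.00 and 1.03 on the log2 scale.

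Promoter letters were counted over the RefSeq table, in which 8144 of the 10098 genes tested had an entry. TTCNNNGAA was in 8.30% of all promoter windows, 7.05% of those of genes tested, 8.60% of those of genes lower in BBA and 7.02% of those of genes higher in BBA. CACGTG was in 7.15% of all windows, 10.6% of those tested, 16.5% of those lower and 7.35% of those higher, and in 28 of 134 windows of ribosome biogenesis genes (20.9%). These shares are descriptions with no test, and no match in a window says nothing of sites elsewhere.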

How the data were processed

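Poly(A)+ RNA of sorted CD8+ T cells was sequenced by the authors as single-end 50 bp reads from cells of a purity above 95%. Per the study's methods reads were aligned with tophat2 2.1.1 and counted per gene with htseq-count 2.0.3. The methods name mm10 and the submitters' processing notes mm9, while annotation and strand setting are not given in the sources used here. The deposited table holds raw read counts per gene symbol, not normalized.

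From the counts, genes were filtered by a re-implementation of the HTSFilter Jaccard rule (above 89.4 scaled counts in at least 1 library), scaled by TMM after the filter and fitted with edgeR 4.0.16 (limma 3.58.1, R 4.3.3) by the quasi-likelihood test over the 6 Tcm libraries with IL-15. Each interaction was fitted over the libraries of both conditions. Calls needed a change above 1.5-fold and a Benjamini-Hochberg adjusted p under 0.05. DESeq2 1.42.0 and the settings given in the closing section were alternatives, and some were chosen after seeing the data. The scripts were tested on simulated data. The gene lists and the named genes were chosen with earlier results of these data known. Up to 15 genes each way with the largest fold change and no overlap, up to 5 each way per interaction, and members of the lists were named (of lists above 35 genes, up to 8 called with the largest fold and the 3 highest not called). Intervals and floors cover counting error only. Of the symbols tested, 10068 (99.7%) were matched to positions on GRCm38.p6. Columns of other CD8+ libraries entered the interaction fits, the separate fits of Tcm without cytokine and of Tnv and Tem with IL-15, the alternative over 48 libraries and the common scale, and 2 samples had no group. Some members of the lists are counted in the lists but not reported here by name.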

Additional observations from a re-analysis of the deposited data

Results flagged for a closer look

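The genotype effect differed between conditions in 794 genes when Tcm with IL-15 were set against Tcm without cytokine, in 20 genes against Tnv with IL-15 and in 1 gene against Tem with IL-15, by the edgeR quasi-likelihood test of the difference itself. The genes with the largest difference to cells without cytokine on the negative side were Gzmb (-4.07), Gbp11 (-3.91), the chemokine-like Fam19a3 (-3.73), Cdk6 (-3.54) and Gp49a (-3.51). Fam19a3 was at 37.1 and 29.0 CPM in WT and 4.46 and 3.54 CPM in BBA with IL-15, and at 3.03 and 3.29 CPM and 7.27 and 3.02 CPM without cytokine. On the positive side they were Igj (3.97), Kcnip2 (2.84), Mageb16-ps1 (2.42), the chemokine receptor Xcr1 (2.40) and Kcnf1 (2.39). Igj was at 22.1 and 16.1 CPM in WT and 53.6 and 34.1 CPM in BBA without cytokine, and at 0.467 and 0.124 CPM and 13.5 and 8.72 CPM with IL-15, so it was lower with IL-15 in both genotypes.

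Against Tnv the differences were Cd163l1 (-5.37), Gas7 (-4.57), Chek1 (-4.45), Cdc6 (-3.85) and Sytl3 (-3.46). Gas7 was at 32.9 and 24.0 CPM in WT and 9.61 and 6.99 CPM in BBA Tcm, and at 0.503 and 1.59 CPM and 10.4 and 5.07 CPM in Tnv, so its direction was opposite in both subsets. Against Tem the gene was Odc1 (-1.51).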

How the results depend on the processing

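The count of 2395 genes between BBA and WT stayed within 1.5 times under other scalings, DESeq2 (2439), the edgeR 4 form of the test (2407), the 4 WT and BBA libraries alone (2357) and all 48 CD8+ libraries (2190), and with each library thinned to the smallest total (2275). TMM before the filter, upper quartile scaling and thinning were chosen after seeing the data. The split moved from 50.1% higher to 24.9% with TMM before the filter. With the filterByExpr filter there were 5404 calls (60.2% higher) and with no filter 6508 (62.7%), where more genes were tested. Bonferroni adjustment left 138 (113 lower, 25 higher) and a limit of 2-fold 1160.

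BBA against AAB, at 605 genes, gave 932 with filterByExpr, 1867 with no filter, 264 with all 48 libraries, 11 with Bonferroni and 268 over 2-fold. The difference between IL-15 and no cytokine, at 794, gave 32 with Bonferroni and 388 over 2-fold. Tcm minus Tnv, at 20, gave 118 with no filter, 264 with DESeq2, 55 with all 48 libraries and 2 with Bonferroni. Tcm minus Tem, at 1, gave 0 with filterByExpr, 114 with DESeq2 and 15 with all 48 libraries. The cause of these shifts was not tested.

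Leaving out 1 library at a time gave 1821 to 2373 genes for BBA against WT, 178 to 593 for BBA against AAB, 292 to 496 for IL-15 minus no cytokine, 0 to 4 for Tcm minus Tnv and 0 to 1 for Tcm minus Tem (where Odc1 was called in none), with fewer samples in each fit. A lone library left in a group was assumed to vary like the others. The lowest count for BBA against AAB came without BBA replicate 2 (178), and without BBA replicate 1 it was 286. Without BBA replicate 1, Ccl5 (-1.80) and Iigp1 (-0.77) changed sign (Iigp1 was at 0.62 without BBA replicate 2), and without BBA replicate 2 Ccl5 (1.19) and Itgae (1.81) were called higher.

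A replicate block in the fit gave 2599 for BBA against WT, 1120 for BBA against AAB (434 lower, 686 higher), 1507 for IL-15 minus no cytokine (836 and 671), 282 for Tcm minus Tnv (210 and 72) and 113 for Tcm minus Tem (61 and 52). Deviations of libraries with the same number correlated at 0.327 (AAB and BBA), 0.422 (AAB and WT) and 0.362 (BBA and WT) across genes, and nothing in the labels says that a number marks a shared animal, day or trial. Depth limits the low-level genes, since the BBA libraries were the shallowest.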

Other observations

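Genes called near Stat5a and Stat5b on chromosome 11 were counted, since both lie side by side. Within 1 Mb 9 of 40 genes tested were called (22.5%), within 2 Mb 18 of 65 (27.7%) and within 5 Mb 36 of 134 (26.9%), against 2395 of all 10098 genes tested in either direction (23.7%). On chromosome 17 between 33000000 and 38000000 (GRCm38.p6), which holds the major histocompatibility region, 123 genes were tested, 16 were lower and 23 higher (31.7%), and 3 of them (H2-Ea-ps, H2-Q2 and Gm8909) were also called without cytokine (2.44%, against 0.287% of all genes tested without cytokine). Over whole chromosomes the share called with IL-15 ran from 19.8% to 30.3%, and chromosome 17 was at 26.5%. This region was chosen after its values were seen.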
